A study of Homo sapiens with 6 samples.

Results

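Respiratory complex I, the NADH:ubiquinone oxidoreductase of the inner mitochondrial membrane, was examined through its nuclear-encoded subunits and the NDUFAF assembly factors that help to build it. The members were all probes whose annotated symbol starts with NDUFA, NDUFB, NDUFC, NDUFS, NDUFV or NDUFAF, which gave 58 probes of 47319 on the array. They stood for 45 genes, namely 36 subunits (42 probes), 8 NDUFAF assembly factors (15 probes) and the antisense gene NDUFB2-AS1. Total RNA came from HCT116, a human colorectal carcinoma line, in its p53-null form, and each of 2 groups had 3 Illumina bead arrays. One group was exposed to 10 µM TIC10 and the other to 0.05% DMSO, the solvent, and both were harvested after 48 h. TIC10, also called ONC201, is a small molecule of the imipridone class that is known to activate the mitochondrial protease ClpP. Nothing in the labels says that the arrays of a group came from separate cultures, so the tests rest on differences between arrays that may be of technical origin only.

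Complex I passes electrons from NADH to ubiquinone and pumps protons across the inner membrane. Its matrix arm binds NADH and carries the flavin and the iron-sulfur clusters, and its membrane arm holds the proton channels, whose core is encoded in mitochondrial DNA. Modules are built separately and then joined, and assembly factors bind the intermediates without remaining in the finished enzyme.

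Levels are given as normalized log2 intensity, and a change is the difference of the TIC10 mean minus the DMSO mean with the standard error of the limma fit, so that a negative change is a lower level in TIC10. A gene counted as changed when its adjusted p (limma moderated test, two-sided, Benjamini-Hochberg over all 14534 genes tested) was under 0.05. Summed intensities were 11613500, 11793300 and 13115800 on the TIC10 arrays, and 14033200, 12775700 and 19128900 on the DMSO arrays. DMSO replicate 3 stood apart, with Pearson correlations across probes of 0.968 and 0.972 with the other DMSO arrays, which correlated at 0.995 with each other, as the TIC10 arrays did at 0.992 to 0.995. Of 9 epithelial markers, EPCAM, KRT19, CDH1, KRT8 and CDX2 lay above percentile 80 of every array. KRT18 ranged from percentile 42.7 to 81.7 and KRT20 from 20.3 to 60.5, while CDX1 and VIL1 did not pass the filter on dim probes. Of 9 markers of fibroblasts, leukocytes and endothelium, 5 passed the filter and 0 lay above percentile 80 on every array, though CD68, a macrophage and lysosomal gene, ranged from percentile 79.5 to 94.8. Their summed intensity was 1042 to 1235 in TIC10 and 643 to 718 in DMSO. CD68 alone had 699 to 889 in TIC10 and 242 to 353 in DMSO, and the other 8 summed to 328 to 347 in TIC10 and 365 to 402 in DMSO. The summed intensity of the epithelial markers was 13276 to 16736 in TIC10 and 14853 to 22326 in DMSO, and the part of either list in the changes was not tested.

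In the normalized bead intensities, 12 of the 35 subunits tested were lower in TIC10 and 0 were higher (limma, adjusted over all genes), where 13.4% of all genes tested were called lower and 10.4% higher. At an unadjusted p under 0.05 the counts were 18 lower and 1 higher, where 19.9% of all genes were lower and 16.1% higher. The median change of the subunits was -0.33, with a range of -0.82 to 0.32, against a median of -0.01 over all genes tested, and 30 subunits had a negative and 5 a positive change. The 3 TIC10 arrays lay below all 3 DMSO arrays in 18 subunits and above them in 1, where 23.1% and 18.5% of all genes did so. The 12 called changes came to between 1.25-fold and 1.76-fold lower. Of these, 8 passed in 16 of 17 alternatives, failing in the series matrix, while NDUFA1 passed in 13, NDUFS5 and NDUFB3 in 11 and NDUFA3 in 9. In total RNA, fewer cells that express a gene and less RNA per cell cannot be told apart.

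The NDUFAF assembly factors held calls in both directions in the same fit. NDUFAF2 and NDUFAF7 were higher and NDUFAF1 was lower among 8 tested, where 10.4% of all genes tested were called higher and 13.4% lower. The median change of the NDUFAF genes was 0.33, with a range of -0.44 to 0.71, and 6 changes were positive. The median of the subunits was 0.66 below that of the NDUFAF genes, a difference that was described and not tested. It was 0.70 below when the arrays were scaled to one median, and 0.05 below in the series matrix, the authors' processed values of the same arrays. The direction of the NDUFAF genes depended on the scaling, since their median was 0.33 after quantile normalization, -0.06 after scaling to one median and -0.10 in the series matrix.

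**Figure D1:**
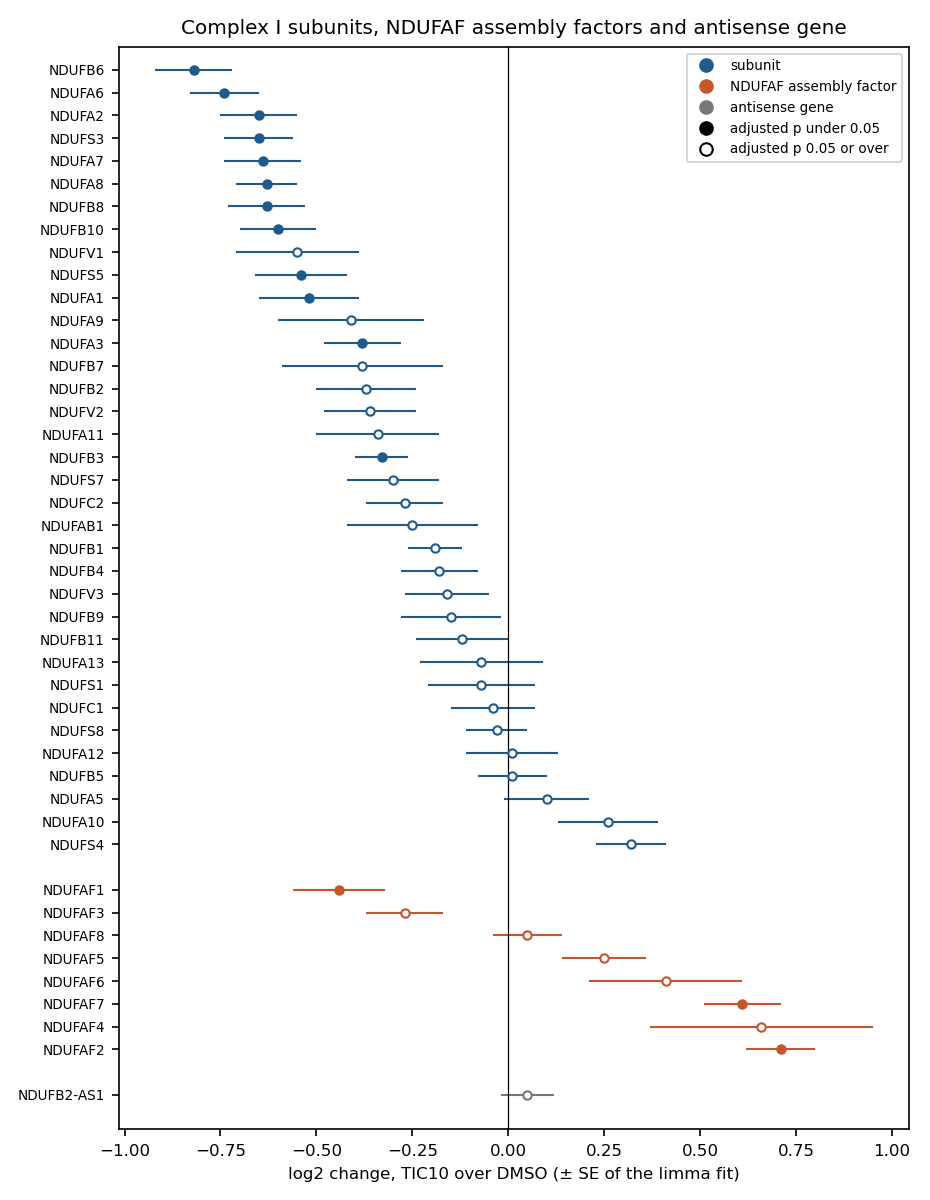
Log2 change of each of the 44 member genes tested (x axis, TIC10 over DMSO; bars, standard error of the limma fit; 3 arrays a group), sorted within subunits, NDUFAF assembly factors and the antisense gene. Filled points passed an adjusted p of 0.05: 12 subunits lie left of 0, and of the NDUFAF genes NDUFAF1 lies left of it and NDUFAF7 and NDUFAF2 right of it.

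The contrast of the lists was present on each TIC10 array. The median subunit deviated from its DMSO mean by -0.26, -0.24 and -0.38 on the TIC10 arrays, against -0.07, 0.02 and 0.06 on the DMSO arrays. The median NDUFAF gene deviated by 0.30, 0.16 and 0.45 on the TIC10 arrays, against -0.08, -0.09 and 0.11 on the DMSO arrays. All 3 TIC10 arrays lay outside the range of the DMSO arrays in both lists. The DMSO mean includes the DMSO arrays themselves, which draws their deviations toward 0, so this separation is a description only. The deposited intensities, before any normalization, gave another picture for the assembly factors. The TIC10 intensities of 27 of 35 subunits lay below all DMSO intensities, where 44.3% of all genes did so. Of the NDUFAF genes 2 of 8 lay below and 0 above, where 3.91% of all genes lay above. The median log2 ratio of the mean intensities was -0.89 for the subunits, -0.20 for the NDUFAF genes and -0.32 for all genes tested. Array medians were 43.0, 43.6 and 42.6 in TIC10 and 47.0, 46.0 and 49.6 in DMSO. Their 90th percentiles differed more, at 372, 374 and 441 in TIC10 and 520, 447 and 786 in DMSO. The values over all genes are not matched for brightness. Most subunits were bright, so those values are not a like background for them.

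Most subunits were bright, and bright probes were called more often. The brightest 2907 of the genes tested held 27 subunits and 2 NDUFAF genes, and 19.8% of these genes were lower and 15.3% higher, with a median change of 0.00. The 27 subunits among them had a median of -0.36, and 10 of them were lower. The next 2907 genes by brightness, of which 18.5% were lower and 15.4% higher, held 5 NDUFAF genes with a median of 0.41, of which 1 was higher.

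In the matrix arm 4 of 14 subunits tested were lower and 0 higher (limma, 7 and 1 at an unadjusted p under 0.05), with a median of -0.33. Of all genes tested, 13.4% were lower and 10.4% higher (19.9% and 16.1% at an unadjusted p under 0.05). NDUFA6 (probe ILMN_3238269), an accessory subunit that holds an acyl carrier protein on the matrix arm, had levels of 8.42, 8.53 and 8.34 in TIC10 and 9.06, 9.21 and 9.24 in DMSO. All TIC10 arrays lay below all DMSO arrays, and NDUFA6 fell by 0.74 ± 0.09 (SE; limma adjusted p = 0.00199). NDUFS3 (ILMN_1756355), a core subunit of the module that passes electrons to ubiquinone, had levels of 10.79, 10.72 and 10.52 in TIC10 and 11.36, 11.28 and 11.36 in DMSO. Its groups did not overlap either, and it fell by 0.65 ± 0.09 (adjusted p = 0.00352).

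NDUFA2 (ILMN_3243890), an accessory subunit of the NADH-binding module, had levels of 10.55, 10.70 and 10.50 in TIC10 and 11.18, 11.39 and 11.14 in DMSO, and it fell by 0.65 ± 0.10 (limma adjusted p = 0.0048). NDUFA7 (ILMN_1675239), another accessory subunit of the matrix arm, had 8.16, 8.26 and 8.04 in TIC10 and 8.64, 8.88 and 8.87 in DMSO, and it fell by 0.64 ± 0.10 (adjusted p = 0.00545). Both were separated between the groups on every array.

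The core subunits are those conserved from bacteria to humans. Of the 6 tested only NDUFS3 passed the test, where 13.4% of all genes tested were called lower. At an unadjusted p under 0.05, 4 were lower, where 19.9% of all genes were. NDUFV1, which binds NADH and the flavin, had levels of 9.66, 9.58 and 9.25 in TIC10 and 9.92, 9.88 and 10.33 in DMSO. The groups did not overlap, and the change of -0.55 ± 0.16 lay just outside the threshold (limma adjusted p = 0.0512); it passed in 6 of 17 alternatives. NDUFV2, an iron-sulfur subunit of the NADH-binding module, had a change of -0.36 ± 0.12 (adjusted p = 0.0796), and its groups did not overlap. NDUFS7, which holds the iron-sulfur cluster nearest ubiquinone, had -0.30 ± 0.12 (adjusted p = 0.114). The iron-sulfur subunits NDUFS1 and NDUFS8 overlapped between groups, with -0.07 ± 0.14 (adjusted p = 0.796) and -0.03 ± 0.08 (adjusted p = 0.828).

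NDUFS4 was the one subunit whose TIC10 arrays all lay above the DMSO arrays. This accessory subunit of the NADH-binding module, in which mutations cause Leigh syndrome, had levels of 11.59, 11.73 and 11.83 in TIC10 and 11.49, 11.38 and 11.32 in DMSO. Its change of 0.32 ± 0.09 lay just outside the threshold (limma adjusted p = 0.0506), and it passed in 4 of 17 alternatives. The change was 0.28 in the series matrix (limma adjusted p = 0.186). It was -0.08 when the arrays were scaled to one median, where the median of all genes was -0.15.

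In the proximal membrane arm 4 of 9 subunits were lower and 0 higher (5 and 0 at an unadjusted p under 0.05), with a median of -0.34. The shares over all genes tested were 13.4% and 10.4% (19.9% and 16.1% at an unadjusted p under 0.05). NDUFA8 (ILMN_1759729), an accessory subunit on the intermembrane-space side, had levels of 10.70, 10.80 and 10.78 in TIC10 and 11.44, 11.27 and 11.47 in DMSO. The groups were apart on every array, and NDUFA8 fell by 0.63 ± 0.08 (limma adjusted p = 0.00283). NDUFS5 (ILMN_1776104), which lies on the same side of the membrane, had 11.78, 11.82 and 11.75 in TIC10 and 12.13, 12.26 and 12.59 in DMSO, the last on the DMSO array that stood apart. It fell by 0.54 ± 0.12 (adjusted p = 0.0219). NDUFA1 and NDUFA3, both small membrane-spanning accessory subunits, fell by 0.52 ± 0.13 (adjusted p = 0.0329) and 0.38 ± 0.10 (adjusted p = 0.0374). The others of this arm ranged up to 0.26 ± 0.13 for NDUFA10, whose groups overlapped (adjusted p = 0.214).

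In the distal membrane arm 4 of 11 subunits were lower and 0 higher (6 and 0 at an unadjusted p under 0.05), with a median of -0.33. The shares over all genes tested were again 13.4% and 10.4% (19.9% and 16.1% at an unadjusted p under 0.05). NDUFB6 (ILMN_1763147), a membrane-spanning accessory subunit, had the largest change of all subunits in this fit. Its levels were 9.48, 9.53 and 9.50 in TIC10 and 10.27, 10.52 and 10.17 in DMSO. The TIC10 arrays lay close together below the DMSO arrays, and NDUFB6 fell by 0.82 ± 0.10 (limma adjusted p = 0.00237). A further probe of NDUFB6 had a change of -1.08 (adjusted p over probes = 0.00148).

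NDUFB8 (ILMN_1661170), a subunit whose protein is widely used as a marker of assembled complex I, had levels of 11.64, 11.82 and 11.54 in TIC10 and 12.22, 12.43 and 12.25 in DMSO, and it fell by 0.63 ± 0.10 (limma adjusted p = 0.0065). NDUFB10 (ILMN_1811754), on the intermembrane-space side, had 10.97, 10.99 and 10.80 in TIC10 and 11.46, 11.44 and 11.68 in DMSO, and it fell by 0.60 ± 0.10 (adjusted p = 0.00626). NDUFB3 had the narrowest spread, with 11.44, 11.44 and 11.43 in TIC10 and 11.78, 11.74 and 11.77 in DMSO. It fell by 0.33 ± 0.07 (adjusted p = 0.0139), and a further probe of it had -0.54 (adjusted p over probes = 0.00241). The acyl carrier protein NDUFAB1, which sits in both arms, had a change of -0.25 ± 0.17 with overlapping groups (adjusted p = 0.368).

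**Figure D2:**
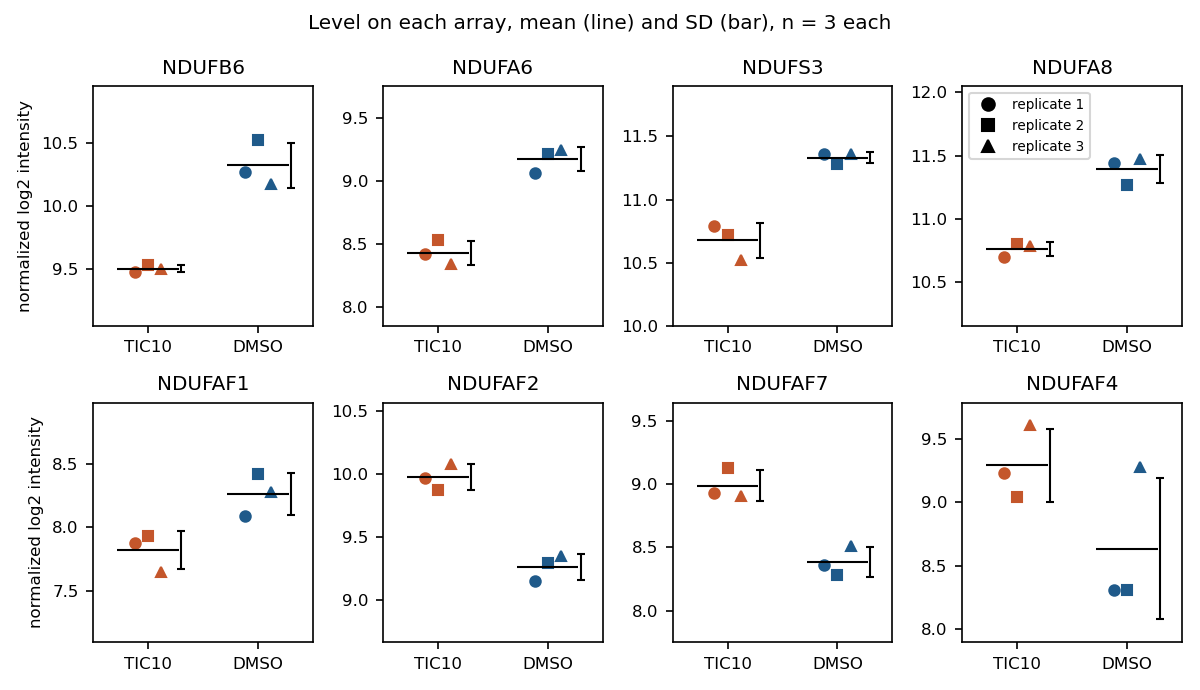
Normalized log2 intensity (y axis, spans of equal length) of 4 subunits (top) and 4 NDUFAF genes (bottom) on the 3 TIC10 arrays (left in each panel) and the 3 DMSO arrays (right), with the mean as a line and the SD as a bar. The groups are apart in every panel but that of NDUFAF4, where DMSO replicate 3 lies at 9.28 and the other DMSO arrays at 8.31.

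Among the assembly factors, NDUFAF2 (ILMN_1682857) is a paralogue of the subunit NDUFA12 that sits in a late intermediate until NDUFA12 takes its place. It had levels of 9.97, 9.87 and 10.08 in TIC10 and 9.15, 9.29 and 9.35 in DMSO. The groups did not overlap, and NDUFAF2 rose by 0.71 ± 0.09 (limma adjusted p = 0.00275). NDUFA12 itself had 10.80, 10.97 and 10.70 in TIC10 and 10.61, 10.97 and 10.85 in DMSO, a change of 0.01 ± 0.12 with overlapping groups (adjusted p = 0.968). The deposited intensities of NDUFAF2 were 734, 690 and 960 in TIC10 and 580, 557 and 1012 in DMSO, and these overlap through DMSO replicate 3. Its change was 0.25 (adjusted p = 0.565) when the arrays were scaled to one median and -0.02 (adjusted p = 0.973) in the series matrix, so the call ended under both.

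NDUFAF7 (ILMN_1722186), a mitochondrial methyltransferase needed for assembly, had levels of 8.93, 9.13 and 8.91 in TIC10 and 8.36, 8.28 and 8.51 in DMSO. It rose by 0.61 ± 0.10 (limma adjusted p = 0.00659), with no overlap. Its further probes had changes of 0.47 (adjusted p over probes = 0.00812) and 0.23 (adjusted p over probes = 0.419). The call ended when the arrays were scaled to one median, at 0.19 (adjusted p = 0.659), and in the series matrix, at 0.06 (adjusted p = 0.863).

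NDUFAF1 (ILMN_1754421), part of the complex that builds the membrane arm around ACAD9, ECSIT and TMEM126B, had levels of 7.88, 7.93 and 7.65 in TIC10 and 8.09, 8.42 and 8.28 in DMSO. The groups did not overlap, and NDUFAF1 fell by 0.44 ± 0.12 (limma adjusted p = 0.0368). It passed in 10 of 17 alternatives, and without DMSO replicate 2 or any 1 of the TIC10 arrays its adjusted p was 0.0611 to 0.118.

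NDUFAF3 and NDUFAF4 act together on the module that meets ubiquinone, and neither passed the test. NDUFAF4 had levels of 9.23, 9.04 and 9.61 in TIC10 and 8.31, 8.31 and 9.28 in DMSO, a change of 0.66 ± 0.29 (limma adjusted p = 0.153). One DMSO array decided that value: without DMSO replicate 3 it was 0.96 (adjusted p = 0.0016), while a further NDUFAF4 probe had 0.16 over all arrays (adjusted p over probes = 0.494). NDUFAF3 had -0.27 ± 0.10 with groups that did not overlap (adjusted p = 0.0948).

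NDUFAF6, an early assembly factor, had levels of 8.25, 8.09 and 8.58 in TIC10 and 7.77, 7.63 and 8.28 in DMSO, a change of 0.41 ± 0.20 (limma adjusted p = 0.198) that became 0.58 (adjusted p = 0.0116) without DMSO replicate 3. NDUFAF5, which hydroxylates NDUFS7, had 0.25 ± 0.11 (adjusted p = 0.157). Its partner NDUFAF8 had 0.05 ± 0.09 (adjusted p = 0.731). The groups of all 3 overlapped.

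Leaving out DMSO replicate 3 raised the number of NDUFAF genes called higher to 4, with 1 lower and a median of 0.40, where 16.2% of all genes were called higher and 19.1% lower. The subunits then gave 14 lower and 1 higher, with a median of -0.26. Leaving out each other array in turn left 2 NDUFAF genes called higher, and 8 to 13 subunits called lower with 0 higher, where 8.1% to 11.1% of all genes were lower and 6.13% to 8.3% higher. With the arrays scaled to one median, the median of all genes was -0.15, and the subunits lay 0.61 below it while the NDUFAF genes lay 0.09 above it. Scaling of this kind shifts all probes of an array alike, so a gap between the groups that differs with brightness remains. The median of all genes was not matched for brightness, so the 0.61 cannot be read as a trait of the subunits. In that setting 10 subunits were lower and 0 higher, and of the NDUFAF genes 1 was lower and 0 were higher, where 13.7% of all genes were lower and 2.17% higher.

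**Figure D3:**
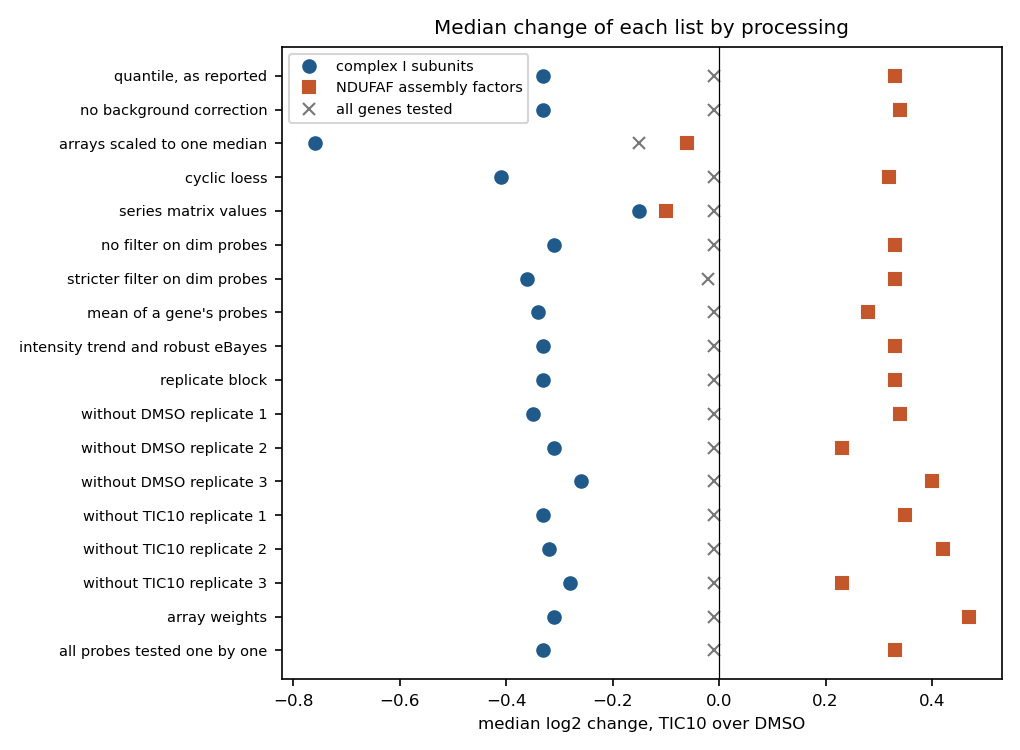
Median log2 change (x axis, TIC10 over DMSO) of the 35 subunits tested (circles), the 8 NDUFAF genes (squares) and all genes tested (crosses) under each processing setting (rows; 31 subunits under the stricter filter, 36 with no filter). The subunits lie left of 0 in every row, from -0.76 to -0.15, and the NDUFAF genes lie right of 0 except at -0.06 with arrays scaled to one median and at -0.10 in the series matrix.

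The series matrix gave smaller changes. None of the members passed there (limma, adjusted over all genes; lowest adjusted p = 0.0788), where 6.7% of all genes did, and at an unadjusted p under 0.05 14 subunits were lower and 2 higher, and of the NDUFAF genes 1 was lower and 0 were higher, where 9.98% of all genes were lower and 9.49% higher. The subunit median was -0.15 and the NDUFAF median -0.10, against -0.01 over all genes. Of the 12 subunits called lower in the bead intensities, 11 were negative in the matrix, with values from -0.35 to 0.05, and NDUFB8 was the exception. Of the 44 members, 27 had the same sign in both tables. The Pearson correlation of the changes was 0.61 over all genes and 0.43 over members, which are descriptions of 2 tables made from the same arrays. No source used here gives the base or scale of the matrix values, or what they were centred on. Within a group, the deviations of same-named columns correlated at only -0.55 to 0.08 between the tables, so the replicate numbers of the matrix were not borne out.

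**Figure D4:**
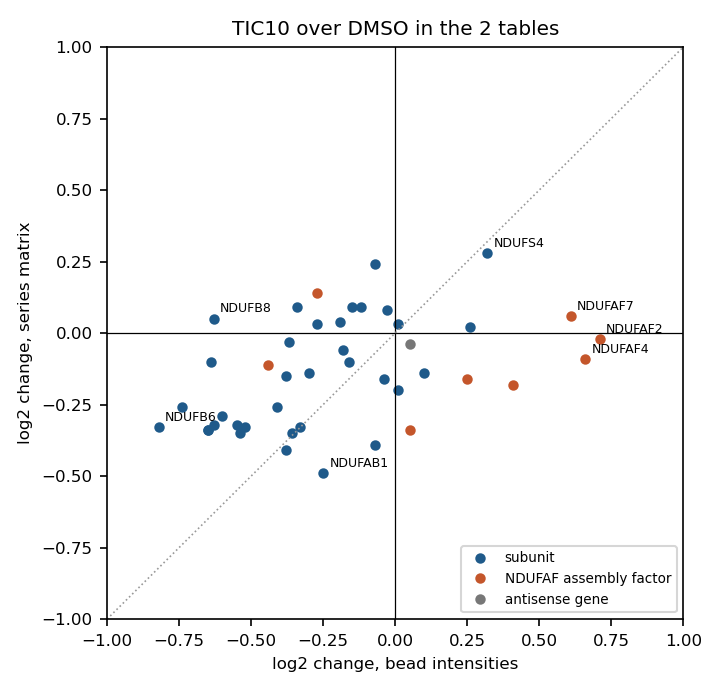
Log2 change (TIC10 over DMSO) of the 44 members in the normalized bead intensities (x axis) and in the series matrix (y axis); the dotted line marks equal values. Of the members, 27 have the same sign in both tables, most subunits lie below 0 on both axes, and NDUFAF2, NDUFAF4 and NDUFAF7 lie near 0 on the y axis.

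The remaining members gave no call. NDUFS6, a zinc-binding subunit of the matrix arm, did not pass the filter, with its highest place at percentile 50.5 of an array, and no level was taken for it. Single probes of NDUFAF3, NDUFAF5 and NDUFB4 did not pass either, so that 54 of 58 probes were kept. NDUFB2-AS1, antisense to NDUFB2, had 0.05 ± 0.07 (limma adjusted p = 0.712), while NDUFB2 had -0.37 ± 0.13 (adjusted p = 0.0836). NDUFV3 had probes of opposite sign, -0.16 for the brighter and 0.09 for the other, and neither passed. The gene formerly called NDUFA4, now counted with complex IV and named COXFA4 in the annotation, had 0.02 ± 0.10 (adjusted p = 0.931), and COXFA4L2 had 0.25 ± 0.10 (adjusted p = 0.117); neither is a member.

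Assembly factors of complex I under other names were set beside the NDUFAF genes. Of 11 tested, 1 was higher and 3 lower, where 10.4% of all genes tested were higher and 13.4% lower. The median of the 11 was -0.03. FOXRED1, which acts late in assembly, fell by 0.89 ± 0.11 (limma adjusted p = 0.00214), and ACAD9, the partner of NDUFAF1, fell by 0.83 ± 0.11 (adjusted p = 0.00322). COA1, which takes part in the assembly of complexes I and IV, fell by 0.59 ± 0.11 (adjusted p = 0.0107). DMAC1, a factor of the distal membrane arm, rose by 0.47 ± 0.12 (adjusted p = 0.0353). The call of DMAC1 held in 10 of 17 alternatives and ended with arrays scaled to one median, at 0.24 (adjusted p = 0.461), and in the series matrix, at 0.28 (adjusted p = 0.175). The calls of FOXRED1 and ACAD9 ended in the series matrix only, and that of COA1 held in 15 of 17. In the same complex as NDUFAF1 and ACAD9, TMEM126B had -0.61 ± 0.19 (adjusted p = 0.0582) and ECSIT 0.22 ± 0.21 (adjusted p = 0.522).

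The other respiratory complexes and ATP synthase also held more lower than higher calls. Of their 36 subunits tested, 14 were lower and 1 higher, where 13.4% of all genes tested were lower and 10.4% higher. The median of the 36 was -0.33, against -0.33 for the complex I subunits. The largest falls were in SDHA, the flavin subunit of complex II, by 0.85 ± 0.15 (limma adjusted p = 0.00774), ATP5MF, a membrane subunit of ATP synthase, by 0.73 ± 0.10 (adjusted p = 0.00289), and ATP5MC1, one of the genes of the ATP synthase ring, by 0.68 ± 0.17 (adjusted p = 0.0266). ATP5MC2, another gene of that ring, rose by 0.54 ± 0.14 (adjusted p = 0.0344), but its call held in 8 of 17 alternatives and ended with arrays scaled to one median, at 0.22 (adjusted p = 0.654), and in the series matrix, at 0.21 (adjusted p = 0.388). ATP5MC1 held its call in 10 of 17. By complex, 1 of 3 subunits was lower in complex II, 2 of 8 in complex III, 3 of 10 in complex IV and 8 of 15 in ATP synthase. Their medians were -0.33, -0.31, -0.32 and -0.46.

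Of 6 regulators of mitochondrial biogenesis tested, 1 was lower and 0 higher, where 13.4% of all genes tested were lower and 10.4% higher. TFAM, which packages and transcribes mitochondrial DNA, fell by 0.59 ± 0.12 (limma adjusted p = 0.0125), a call that held in 13 of 17 alternatives. The transcription factors NRF1, GABPA and YY1 had changes of 0.04 ± 0.11, 0.13 ± 0.09 and 0.03 ± 0.11. CLPP, the gene of the ClpP protease, had -0.09 ± 0.13 (adjusted p = 0.706).

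Promoter sequences were set beside these changes because subunit genes of the respiratory chain are known to share binding sequences of NRF1, of ETS factors such as GABPA, and of YY1. RefSeq windows of GRCh38.p14, from 250 bases before to 50 after the annotated start, were found for 40 of 45 members. They were searched on both strands for GCGCATGC (NRF1), CCGGAAG (the ETS core), AAGATGGC (YY1) and TGATGNAA (an ATF4 composite), which do not contain one another. AAGATGGC lay in the windows of 7 of 32 subunits (21.9%), against 3.52% of 27305 genes. GCGCATGC lay in 6 of 32 (18.8%), against 3.68% of genes. CCGGAAG lay in 5 of 32 (15.6%), against 12.2%, and TGATGNAA in 2 of 32 (6.25%), against 4.46%. Of the 7 NDUFAF genes with a window, 2 held GCGCATGC, 2 CCGGAAG, 1 AAGATGGC and 0 TGATGNAA. The subunits called lower held AAGATGGC in 4 of 11, GCGCATGC in 2 of 11 and CCGGAAG in 2 of 11, and the subunits not called in 4 or fewer of 21 for each. A match is a description of letters, not a site in use.

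The windows below are those of subunits that fell and hold a match, chosen to show where the letters lie, and of NDUFAF2, which rose and holds none of the 4. Each reads 5′ to 3′ on the strand of the gene, with matches in capitals, and positions count from 1 at the annotated start, negative before it. In NDUFA6 (chr22:42090723-42091022, minus strand) the reverse of the NRF1 letters lies at -166 to -159 and the YY1 letters at 26 to 33. The YY1 letters lie at 15 to 22 in NDUFA7 (chr19:8321326-8321625, minus), at 18 to 25 in NDUFB8 (chr10:100529822-100530121, minus) and at 22 to 29 in NDUFA3 (chr19:54102605-54102904, plus). NDUFA8 (chr9:122159730-122160029, minus) holds overlapping NRF1 matches on both strands, at -4 to 4 and -2 to 6. NDUFS3 (chr11:47578824-47579123, plus) holds the ETS core in reverse at -102 to -96 and forward at -83 to -77. NDUFA1 (chrX:119871582-119871881, plus) holds it in reverse at -47 to -41. The window of NDUFAF2 is chr5:60944955-60945254, plus strand. NDUFAF7, which also rose, holds none of the 4 in its window either, and that window is not shown.
NDUFA6: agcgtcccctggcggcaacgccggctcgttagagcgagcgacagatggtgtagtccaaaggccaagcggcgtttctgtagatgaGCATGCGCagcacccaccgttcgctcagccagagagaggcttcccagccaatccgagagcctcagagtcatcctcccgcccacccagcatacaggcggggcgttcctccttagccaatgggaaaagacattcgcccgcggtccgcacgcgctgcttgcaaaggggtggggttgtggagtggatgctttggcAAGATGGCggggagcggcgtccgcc
NDUFA7: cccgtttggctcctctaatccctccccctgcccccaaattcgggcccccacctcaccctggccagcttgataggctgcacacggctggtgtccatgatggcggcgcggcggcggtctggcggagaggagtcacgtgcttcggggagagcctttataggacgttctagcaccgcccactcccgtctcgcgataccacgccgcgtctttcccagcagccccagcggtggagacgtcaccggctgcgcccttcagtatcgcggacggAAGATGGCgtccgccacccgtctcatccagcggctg
NDUFB8: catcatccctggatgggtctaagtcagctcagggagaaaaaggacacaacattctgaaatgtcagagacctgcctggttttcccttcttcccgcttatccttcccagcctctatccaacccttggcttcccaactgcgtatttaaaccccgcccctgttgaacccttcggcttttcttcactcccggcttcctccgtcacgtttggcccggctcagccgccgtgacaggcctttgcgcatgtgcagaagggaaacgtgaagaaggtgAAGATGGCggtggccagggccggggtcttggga
NDUFA3: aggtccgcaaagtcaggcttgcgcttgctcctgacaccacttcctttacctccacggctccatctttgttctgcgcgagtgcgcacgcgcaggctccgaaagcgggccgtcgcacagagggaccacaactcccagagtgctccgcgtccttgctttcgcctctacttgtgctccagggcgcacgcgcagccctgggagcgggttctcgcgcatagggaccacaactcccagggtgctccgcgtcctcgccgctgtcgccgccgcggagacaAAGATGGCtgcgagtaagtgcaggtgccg
NDUFA8: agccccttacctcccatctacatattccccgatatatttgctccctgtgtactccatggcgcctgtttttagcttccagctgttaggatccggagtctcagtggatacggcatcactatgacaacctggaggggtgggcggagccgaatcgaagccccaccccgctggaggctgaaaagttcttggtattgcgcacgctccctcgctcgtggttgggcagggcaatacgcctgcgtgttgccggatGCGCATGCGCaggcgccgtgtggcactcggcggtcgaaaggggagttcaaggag
NDUFS3: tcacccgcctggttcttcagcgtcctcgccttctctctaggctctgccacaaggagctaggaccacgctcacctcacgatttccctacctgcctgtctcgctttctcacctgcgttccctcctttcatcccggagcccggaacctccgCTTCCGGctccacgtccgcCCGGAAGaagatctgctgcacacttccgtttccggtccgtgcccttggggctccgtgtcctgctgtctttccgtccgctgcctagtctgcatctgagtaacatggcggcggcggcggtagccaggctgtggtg
NDUFA1: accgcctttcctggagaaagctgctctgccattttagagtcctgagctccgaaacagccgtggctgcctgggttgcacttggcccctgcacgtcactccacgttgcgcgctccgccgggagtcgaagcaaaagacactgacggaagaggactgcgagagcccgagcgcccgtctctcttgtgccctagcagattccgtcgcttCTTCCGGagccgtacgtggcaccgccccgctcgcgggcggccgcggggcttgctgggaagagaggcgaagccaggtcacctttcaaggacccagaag
NDUFAF2: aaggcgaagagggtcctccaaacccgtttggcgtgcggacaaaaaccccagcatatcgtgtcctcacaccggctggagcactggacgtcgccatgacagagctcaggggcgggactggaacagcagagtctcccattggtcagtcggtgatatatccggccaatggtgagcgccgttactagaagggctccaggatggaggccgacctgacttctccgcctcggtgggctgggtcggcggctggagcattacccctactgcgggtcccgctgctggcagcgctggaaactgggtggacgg

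In all 4 windows shown with the YY1 letters, these lie after the annotated start, on the strand of the gene. The letters contain ATG, the triplet of a start codon. Whether they mark the start of translation in these genes was not tested, so their shared place cannot be read as promoter control. NDUFA6, NDUFA7, NDUFB8 and NDUFA3 share them, and NDUFA8, NDUFS3 and NDUFA1 lack them. All subunits shown were chosen because they were called lower, so their changes cannot show whether the letters go with a fall. The YY1 letters also lay in 3 of 21 subunits that were not called.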

How the data were processed

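Total RNA was labelled as biotinylated cRNA and hybridized to Illumina arrays, per the labels' protocols. The deposited bead table held intensity values that the authors' file calls not normalized, and no detection p-values were used. The 3 Control columns were read as the DMSO replicates, matched by number alone. The deposited series matrix held the authors' processed values, which lay on both sides of 0 and were read as log2. Its column medians were 0.0304, -0.0956 and 0.0291 for TIC10 and -0.0556, -0.000809 and 0.0687 for DMSO. It served as an alternative, and no source used here gives its base, scale or centring.

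Intensities were background-corrected (normexp, offset 50), quantile normalized and taken to log2 in R 4.3.3 with limma 3.58.1. Probes above percentile 40 of their array on at least 3 arrays were kept, 29440 in all, and the brightest kept probe stood for its gene. Genes were named from the array annotation, updated to RefSeq symbols by Entrez number. TIC10 was compared with DMSO by lmFit and eBayes (two-sided), adjusted by Benjamini-Hochberg over 14534 genes, with a threshold of 0.05. An exact permutation test of 3 arrays against 3 cannot go below p = 0.1. The number of arrays limits the precision.

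Genes named were all NDUFAF genes, the core subunits, up to 8 called subunits a direction by size, members whose probes disagreed, up to 3 called genes a direction in each comparison list, COXFA4, COXFA4L2 and CLPP. NDUFS4, NDUFAB1, NDUFA1, NDUFA3, NDUFA10, NDUFA12, NDUFB3, NDUFV3, NDUFB2, TMEM126B, ECSIT and the regulators were added after their values were seen. The members and lists were chosen with earlier results of these data known. Array weights were added after DMSO replicate 3 was seen to stand apart. Same-numbered arrays of the 2 groups deviated with correlations of -0.15, 0.16 and -0.01, so the numbers were not taken as pairs.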

Additional observations from a re-analysis of the deposited data

How the results depend on the processing

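In the series matrix, 0 subunits and 0 NDUFAF genes were called in either direction, with medians of -0.15 and -0.10. The other assembly factors gave 0 calls. Of the other respiratory chain subunits 2 were lower and 0 higher, where 3.02% of all genes were lower and 3.68% higher, and their median was -0.18. There NDUFAF2 (-0.02), NDUFAF3 (0.14), NDUFAF4 (-0.09), NDUFAF5 (-0.16), NDUFAF6 (-0.18), NDUFAF8 (-0.34), NDUFS8 (0.08) and NDUFB8 (0.05) changed sign. With arrays scaled to one median, the subunit median was -0.76 and the NDUFAF median -0.06. The medians were -0.32 for other assembly factors and -0.65 for the other respiratory chain. Of the other respiratory chain 9 were lower and 0 higher, where 13.7% of all genes were lower and 2.17% higher. In that setting 0 NDUFAF genes and 0 other assembly factors were higher, and NDUFAF5 (-0.14) and NDUFAF8 (-0.14) changed sign. With array weights, 20 subunits were lower and 2 higher, 5 NDUFAF genes higher and 2 lower, 2 other assembly factors higher and 24 other respiratory chain subunits lower, where 22.3% of all genes were lower and 19.1% higher, and NDUFS8 was 0.02. With the replicate block, 4 NDUFAF genes were higher and 0 lower, where 8.7% of all genes were higher and 11.1% lower. In that fit 0 other respiratory chain subunits were higher, and the numbers do not pair the arrays. Cyclic loess gave 2 NDUFAF genes lower and 0 other respiratory chain subunits higher, where 12.8% of all genes were lower and 9.45% higher. The intensity trend with robust eBayes gave 0 NDUFAF genes lower, where 13.8% of all genes were lower. With the mean of a gene's probes 1 subunit was higher, where 10.6% of all genes were, and the median of the other assembly factors was -0.18. With no filter on dim probes 1 subunit was higher, where 7.21% of all genes were. Leaving out each array in turn gave 8 to 14 subunits lower and 0 to 1 higher, with medians of -0.35 to -0.26. The NDUFAF genes gave 2 to 4 higher and 0 to 1 lower, with medians of 0.23 to 0.42. The other assembly factors gave 0 to 2 higher, with medians of -0.21 to -0.06. Of the other respiratory chain subunits 9 to 16 were lower and 0 to 1 higher. In these fits 8.1% to 19.1% of all genes were lower and 6.13% to 16.2% higher. NDUFS1 then ranged from -0.17 to 0.08, the last without DMSO replicate 1. Why these values moved was not tested. Over 22 named genes, 328 alternative values kept their sign and side of the threshold, 26 lost the call, 16 gained one and 12 changed sign, 2 of which (NDUFAF2 and NDUFB8 in the series matrix) are among those that lost it. With 3 arrays a group, the standard errors of the members ran from 0.07 to 0.29, the last for NDUFAF4, whose change of 0.66 did not pass. The limits are those of intensity: each gene is read by 1 probe in most cases, and transcripts encoded in mitochondrial DNA and protein levels were not analysed here.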

Other observations

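Several members share the stretch around their start with a gene on the other strand. The windows of 18 members overlapped a RefSeq window of an opposite gene, and 13 of these had a tested partner. NDUFAF7 rose by 0.61 ± 0.10 (limma adjusted p = 0.00659), and CEBPZ across from it had a change of 0.41 ± 0.12 that missed the threshold (adjusted p = 0.054). NDUFAF2 rose by 0.71 ± 0.09 (adjusted p = 0.00275), while its opposite neighbour ERCC8, a DNA repair gene, had 0.06 ± 0.10 (adjusted p = 0.745). DALRD3 rose by 0.50 ± 0.14 (adjusted p = 0.0417) across from NDUFAF3, which had -0.27 ± 0.10 (adjusted p = 0.0948). RPS28, a ribosomal protein gene, had 0.35 ± 0.13 (adjusted p = 0.111) across from NDUFA7, which fell by 0.64 ± 0.10 (adjusted p = 0.00545). NDUFS3 and NDUFA2 fell by 0.65 ± 0.09 and 0.65 ± 0.10, and their neighbours KBTBD4 and IK had -0.38 ± 0.24 (adjusted p = 0.313) and -0.20 ± 0.09 (adjusted p = 0.142). These pairs were chosen after their values were seen, and whether a pair differs was not tested.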
